A study of Mus musculus with 58 samples.

Results

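The difference between the effects of switching IKKβ on and of removing it was measured in 18 of the 58 samples of the series, all cultures of mouse primary microglia. The 18 libraries were those of the genotypes IkbkbCA (5 libraries), IkbkbWT (5), Ikbkb-/- (4) and Ikbkb+/+ (4), and every one of them was used. IkbkbCA cells were Cx3cr1 CreERT2/+ with IkbkbCA F/F, an allele that places a constitutively active IKKβ behind a floxed stop in the Rosa locus, and IkbkbWT cells carried the same allele without Cre. Ikbkb-/- cells were Cx3cr1 CreERT2/+ with floxed Ikbkb F/F, and Ikbkb+/+ cells carried the floxed gene without Cre. The study's methods state that cultures of mixed glia received 4-hydroxytamoxifen in all 4 groups, Cre-negative controls included. Both mutant groups therefore had Cre, a lost copy of Cx3cr1 and tamoxifen in common, and both control groups had tamoxifen alone. The quantity reported is (IkbkbCA minus IkbkbWT) minus (Ikbkb-/- minus Ikbkb+/+) on the log2 scale, in which a change of equal size in both mutants gives 0. A positive value means that a gene was higher with active IKKβ than with IKKβ removed, each relative to its own control. The labels give neither sex nor age for these cultures; the study's methods describe cultures from newborn pups and say that RNA-seq was done on male mice. For a separate readout, 8 libraries of wild-type primary microglia with tau fibrils or vehicle and 8 of adult microglia from P301S+ (PS19) or NTG male mice were used. The 24 cortex samples of the series were not analysed here.

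IKKβ, the product of Ikbkb, is the kinase of the IKK complex that phosphorylates IκBα and marks it for destruction. NF-κB dimers then enter the nucleus and switch on chemokines, cytokines, survival genes and also their own brakes, among them IκBα (Nfkbia) and A20 (Tnfaip3), so that levels of these brakes are widely read as a sign of the pathway's activity. Microglia, the resident macrophages of the brain, use the pathway to respond to microbial products and to debris. The design forces the kinase on in one mouse line and removes it in another, and asks which genes respond unequally to these changes.

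Reads were QuantSeq 3′ tags, counted once per gene near its 3′ end, so levels are given as CPM, a gene's counts scaled to a common library total after TMM normalization, and can be compared between libraries. Libraries held 1792993 to 8349128 counts on genes. Some libraries stood apart. Ikbkb+/+ libraries 1, 2 and 3 held 314, 205 and 92.1 CPM of Siglech, a sialic acid receptor of microglia, against 9.75 in library 4 and at most 15.8 in the other 14 libraries. IkbkbWT library 3 had 1965 CPM of the myelin gene Mbp and IkbkbCA library 3 had 727, against 87.4 to 257 elsewhere. In the IkbkbCA and IkbkbWT groups, libraries 1 and 2 and libraries 4 and 5 were most alike, with a root mean square distance of 0.295 to 0.327 on the log2(CPM + 1) scale against 0.550 to 0.705 for the other pairs. These closest pairs still differed by more than sampling noise, with a chi-square per gene of 3.08 to 4.89. The lowest value over all pairs was 1.93. Whether alike libraries came from the same culture is not given in the sources used here, so p-values measure the spread between libraries, which may be partly technical. Reads outside annotated genes made up 12.4% to 14% of the IkbkbCA libraries and 15.1% to 18.7% of the other 13, so this share moved with active IKKβ; with it as a covariate 107 genes passed. Xist, made from the inactive X chromosome, was at 1.73 to 2.79 CPM in IkbkbWT libraries 1 to 3 and 5.67 to 10.7 in the 4 Ikbkb-/- libraries, and 149 to 486 in the remaining 11, so the female-typical transcript was abundant in 11 of the 18 libraries and differed between the groups. With Y-linked Ddx3y as a covariate 408 genes passed, 370 of them among the genes reported here.

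Among 12352 genes tested, 386 differed between the 2 effects at a false discovery rate under 0.05, which is 3.12% of genes. At an unadjusted p under 0.05 there were 1889, the background for such counts in the gene lists below. Active IKKβ gave the higher value for 275 of them (2.23%) and the lower for 111 (0.899%), beside a median difference of -0.04 over all genes tested. The IkbkbCA effect on its own was called for 1138 genes that rose (9.21%) and 1091 that fell (8.83%), and the Ikbkb-/- effect for 444 that rose (3.59%) and 431 that fell (3.49%). Of the 546 genes called in both effects, 525 moved the same way in IkbkbCA and Ikbkb-/- and 21 moved in opposite ways. Most of the 386 called differences, 291 genes, came with a called IkbkbCA effect and no called Ikbkb-/- effect, and 48 came with a called Ikbkb-/- effect alone. A further 17 came with effects of the same sign and unequal size, 9 with neither effect called, and the remaining 21 were the genes with opposite effects (0.17% of genes). The count changed with the choice and grouping of libraries. Fits with fewer samples also have less power to call a gene, and these were not told apart. Without Ikbkb+/+ libraries 1, 2 and 3 the difference was called for 59 genes, all among the 386, of which 58 were higher and 1 was lower. With pairs of libraries summed, leaving 3, 3, 2 and 2 samples, it was called for 22 genes, all higher and all among the 386, while 352 genes were lower at an unadjusted p under 0.05. The pairs were 1 with 2 and 4 with 5 in IkbkbCA and IkbkbWT, and 1 with 2 and 3 with 4 in the other groups. In those other groups the summed pairs were not set apart, with root mean square distances of 0.330 to 0.478 over all pairs. With a term for the 3 sets that the IkbkbCA and IkbkbWT libraries form (1 and 2, 3, 4 and 5) the difference was called for 971 genes. These 3 fits were chosen after seeing the data.

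**Figure D1:**
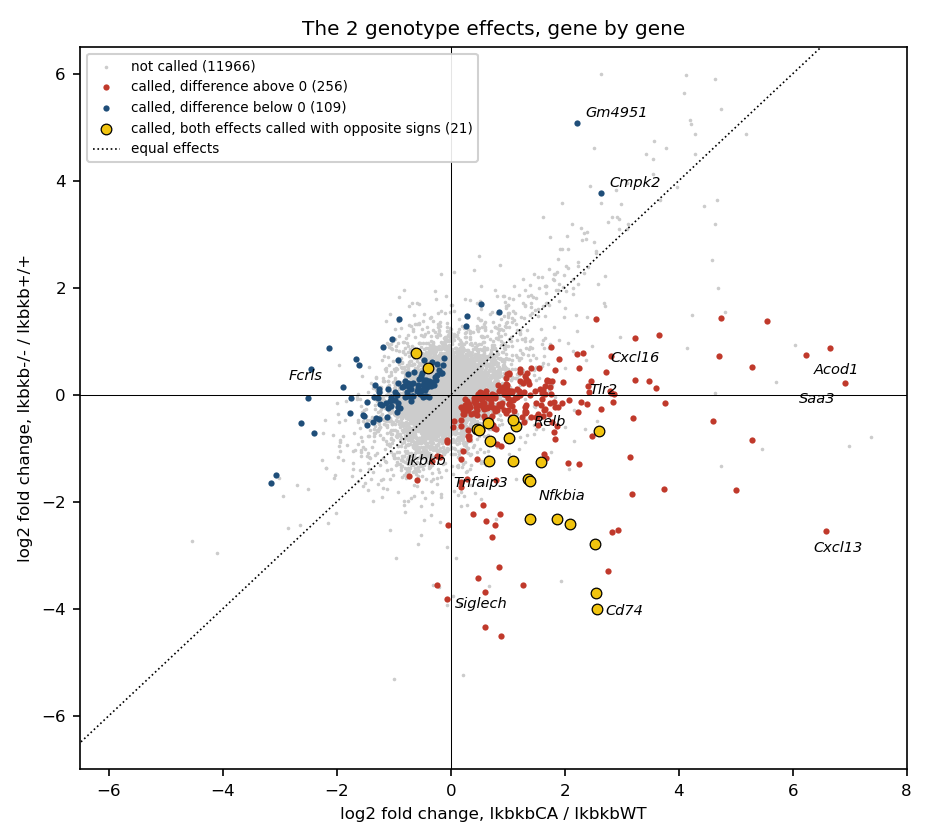
Each point is 1 of the 12352 genes tested, with the log2 fold change of IkbkbCA over IkbkbWT on the horizontal axis and that of Ikbkb-/- over Ikbkb+/+ on the vertical axis, and the dotted line marks equal effects. The 275 called genes above 0 lie to the lower right of that line and spread mostly along the horizontal axis, while uncalled genes such as those of the interferon response lie along the dotted line at the upper right.

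Ikbkb, the deleted gene, was lower in the libraries labelled Ikbkb-/-, and it does not check the labels of the IkbkbCA and IkbkbWT libraries. Its level was 25.2, 24.8, 18.6 and 22.4 CPM in the 4 Ikbkb-/- libraries and 54.2, 45.7, 53.3 and 54.8 in the 4 Ikbkb+/+ libraries, with no overlap. The IkbkbCA libraries held 55.7, 60.3, 56.7, 44.9 and 46.9 CPM and the IkbkbWT libraries 45.9, 58.7, 41.0, 43.4 and 44.4, and those groups overlapped. The deletion effect was -1.20 ± 0.13 (log2 ± SE, edgeR adjusted p = 5.19e-06), and the activation effect 0.18 ± 0.11 was not called (edgeR adjusted p = 0.299). By RT-qPCR, the study found Ikbkb raised in IkbkbCA and lowered in Ikbkb-/- primary microglia. Whether the 3′ end of the transgene is counted on Ikbkb is not given in the sources used here. The difference of 1.38 ± 0.17 at this gene (edgeR adjusted p = 7.99e-05) therefore came from the deletion side. Cx3cr1, the fractalkine receptor whose locus carries CreERT2, had a group mean of 1199 ± 79.2 CPM in IkbkbCA, 1756 ± 209.6 in IkbkbWT, 1063 ± 105 in Ikbkb-/- and 2375 ± 469.6 in Ikbkb+/+ (mean ± SD). It was lower in both mutants than in their controls, and its difference of 0.61 ± 0.17 missed the threshold (edgeR adjusted p = 0.0556).

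A group of 17 genes was called in the fit reported here, with each of the 18 libraries left out in turn and under all 15 other alternatives. They were Ccrl2, Clec4n, Clec5a, Cxcl16, Ets2, Gpr84, Igsf6, Il2rg, Lpcat2, Maff, Marcksl1, Nadk, Nfkbia, Rassf4, Relb, Rrad and Tlr2, named here after their values were seen, and all were higher with active IKKβ. Tlr2, the receptor for bacterial lipopeptides, had the smallest p-value of all genes. Its levels were 570.4, 534, 428, 564 and 469.6 CPM in IkbkbCA, 98.7, 106, 100.1, 99.1 and 123 in IkbkbWT, 107, 103, 124 and 106 in Ikbkb-/- and 133, 118, 117 and 118 in Ikbkb+/+. Every IkbkbCA library was above all 13 others, and the other 3 groups lay close together. The difference was 2.42 ± 0.14 (edgeR adjusted p = 4.59e-09), made up of 2.28 ± 0.09 on activation and -0.14 ± 0.10 on deletion.

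Relb, the NF-κB subunit of the non-canonical arm, followed the same course. Its levels were 142, 143, 147, 115 and 126 CPM in IkbkbCA and 45.1, 37.9, 43.5, 33.1 and 42.0 in IkbkbWT. In Ikbkb-/- they were 41.5, 33.8, 33.3 and 37.7 and in Ikbkb+/+ 43.1, 36.5, 36.3 and 45.4, and these last 3 groups overlapped. The difference was 1.89 ± 0.16 (edgeR adjusted p = 4.71e-07), with a deletion effect of -0.15 ± 0.12. Cxcl16, a membrane-bound chemokine and scavenger receptor, stood at 505 ± 62.8 CPM in IkbkbCA and 76.6 ± 16.1 in IkbkbWT (mean ± SD, n = 5 each). In Ikbkb-/- it stood at 105 ± 8.67 and in Ikbkb+/+ at 78.8 ± 7.59 (n = 4 each), with no overlap on either side. The effects were 2.72 ± 0.13 on activation and 0.42 ± 0.14 on deletion, the latter not called (edgeR adjusted p = 0.0892). Gpr84, a receptor for medium-chain fatty acids that inflammatory stimuli raise in macrophages, had 200.1, 197, 319, 194 and 195 CPM in IkbkbCA against 10.9 to 26 in the other 13 libraries. Nadk, the kinase that makes NADP, had 221, 227, 212, 197 and 203 CPM in IkbkbCA against 55.4 to 85.5 in the others, a smaller but tightly measured difference of 1.47 ± 0.12. Acod1, which makes itaconate, was called in every leave-one-out fit and was not tested only where each library had to hold 10 counts. Its levels were 146, 149, 224, 149 and 161 CPM in IkbkbCA and 0.978 to 5.13 CPM in the other 13 libraries. The difference of 5.48 ± 0.41 (edgeR adjusted p = 2.38e-07) was the tenth highest among called genes with a mean count of at least 10 in some group.

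**Figure D2:**
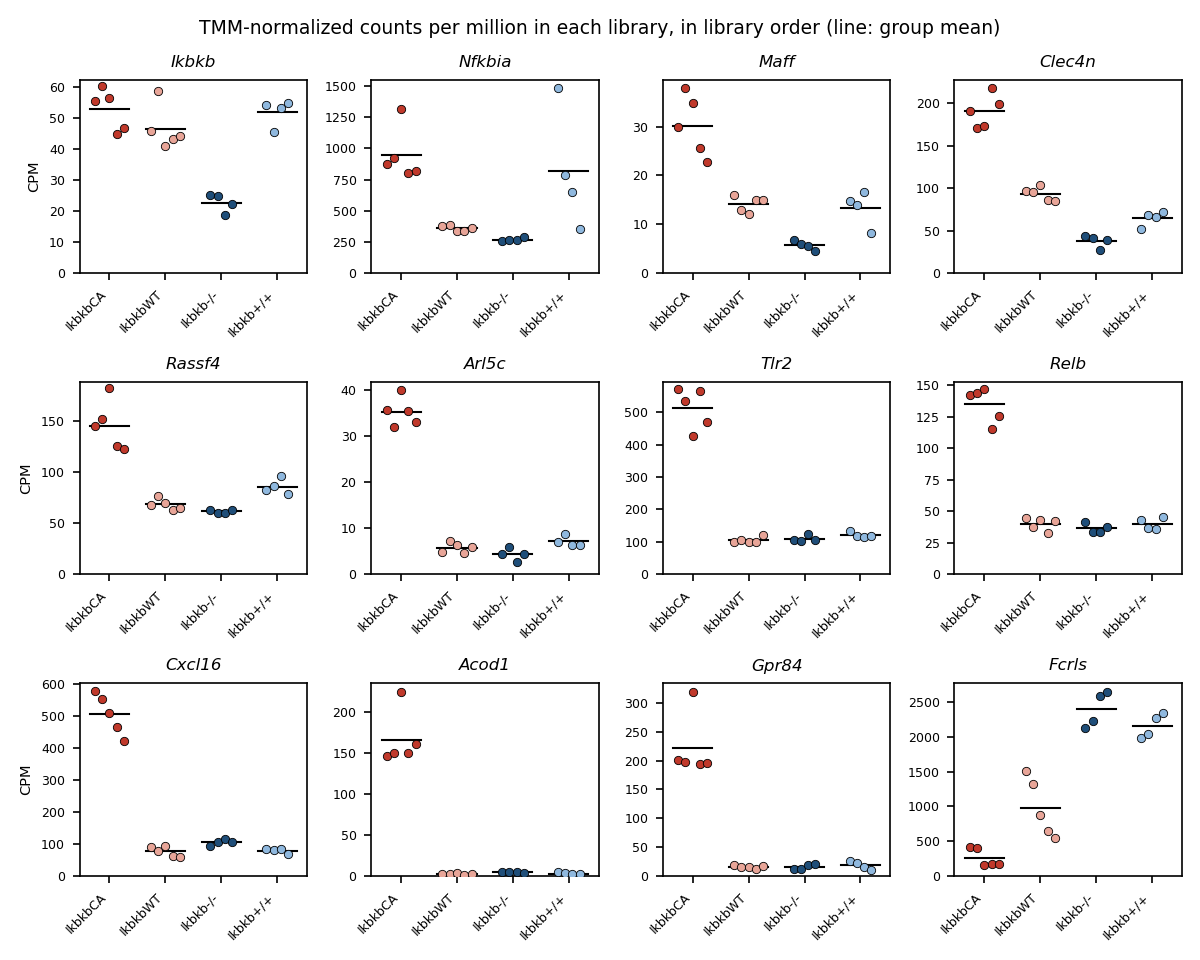
TMM-normalized CPM of 12 genes in each of the 18 libraries (points, in library order within a group; vertical axis from 0) with group means (lines). For Tlr2, Relb, Cxcl16, Acod1 and Gpr84 the IkbkbCA libraries stand above all others and the other 3 groups lie together, whereas Clec4n, Maff, Rassf4 and Arl5c are also lower in Ikbkb-/- than in Ikbkb+/+.

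The 21 genes with opposite effects were raised by activation and lowered by deletion in 19 cases and the reverse in 2, Fabp5 and Enho. In 9 of the 19, and in 28 of all genes tested (0.227%), every IkbkbCA library was above every IkbkbWT library and every Ikbkb-/- library below every Ikbkb+/+ library; 27 of those 28 genes were called in the difference, which the pattern itself favours. Clec4n, a C-type lectin that binds fungal mannans (Dectin-2), had 191, 171, 173, 218 and 199 CPM in IkbkbCA and 97.0, 95.6, 104, 85.9 and 85.0 in IkbkbWT. It had 43.2, 40.7, 26.6 and 38.8 CPM in Ikbkb-/- and 52.3, 67.7, 66.2 and 72.2 in Ikbkb+/+. Neither mutant overlapped its control, and the 2 control groups did not overlap each other either. The difference was 1.84 ± 0.17 (edgeR adjusted p = 3.18e-06), from 1.03 ± 0.11 and -0.81 ± 0.13. Maff, a small Maf transcription factor, had 29.8, 37.9, 34.9, 25.6 and 22.8 CPM in IkbkbCA, 16.1, 12.8, 12.1, 15.0 and 15.0 in IkbkbWT, 6.73, 5.88, 5.59 and 4.60 in Ikbkb-/- and 14.8, 13.8, 16.7 and 8.17 in Ikbkb+/+. Activation gave 1.09 ± 0.17 and deletion -1.25 ± 0.23. Rassf4, a Ras-association protein, had 62.8, 60.5, 59.9 and 63.5 CPM in Ikbkb-/- and 82.4, 86.4, 95.8 and 78.8 in Ikbkb+/+, without overlap, and effects of 1.09 ± 0.10 on activation and -0.48 ± 0.11 on deletion. Arl5c, an Arf-like GTPase, rose by 2.60 ± 0.16 and changed by -0.69 ± 0.21 on deletion, the latter just inside the threshold (edgeR adjusted p = 0.0495). The transcription factor gene Junb had effects of 0.65 ± 0.11 and -0.53 ± 0.13, and the kinase gene Fam20c, which phosphorylates secreted proteins, 1.14 ± 0.13 and -0.59 ± 0.15. Of the 2 genes with the reverse pattern, Fabp5, a fatty acid binding protein, had 125 ± 14.7 CPM in IkbkbCA and 165 ± 21.1 in IkbkbWT, then 184 ± 5.33 in Ikbkb-/- and 130.3 ± 14.5 in Ikbkb+/+ (mean ± SD). Enho, which encodes the secreted peptide adropin, had effects of -0.61 ± 0.17 and 0.77 ± 0.19.

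Nfkbia, the IκBα gene, belonged to the genes with opposite effects, but its deletion effect leaned on the libraries that stood apart. Its levels were 877, 927, 1317, 799 and 816 CPM in IkbkbCA and 378, 386, 339, 336 and 365 in IkbkbWT. They were 255, 268, 261 and 286 in Ikbkb-/- and 1488, 787, 649 and 355 in Ikbkb+/+. All 4 Ikbkb-/- libraries were below all other libraries, and Ikbkb+/+ library 4 lay within the IkbkbWT range while libraries 1 to 3 lay far above it. The difference was 3.0 ± 0.37 (edgeR adjusted p = 7.3e-05) and still 1.83 without Ikbkb+/+ libraries 1 to 3 (edgeR adjusted p = 0.00112), where Nfkbia was the only gene left with opposite effects. For Tnfaip3, the A20 deubiquitinase, the difference of 2.94 ± 0.42 became 2.32 and missed the threshold (edgeR adjusted p = 0.0611).

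Other genes with opposite effects were Chst7, a sulfotransferase (3.72 ± 0.46), Plxnd1, a semaphorin receptor (1.55 ± 0.26), and Nrp2, a co-receptor of that family (1.15 ± 0.24).

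In Ikbkb+/+ libraries 1 to 3 a wider group of genes was high, and the calls of the difference for the genes named in this paragraph were lost without those 3 libraries, in a fit with a single Ikbkb+/+ library. H2-Aa, a chain of MHC class II, had 62.7, 33.3, 19.6 and 1.19 CPM in Ikbkb+/+ and 0.408 to 2.13 in the other 14 libraries, while Cd74, the invariant chain, had 54.2, 36.3, 32.5 and 1.71 CPM in Ikbkb+/+ and 9.43, 9.66, 5.22, 6.69 and 7.77 in IkbkbCA. Without the 3 libraries the difference at H2-Aa fell from 5.40 to 0.92 (edgeR adjusted p = 0.909) and that at Cd74 from 6.57 to 2.48 (edgeR adjusted p = 0.239). The class II gene H2-Eb1 went from 4.95 to 1.38, the integrin gene Itgax from 4.28 to 1.20, the phosphatase gene Dusp2 from 4.08 to 1.73 and Siglech from 3.76 to -0.16, and none of these had a called activation effect. Cd74 and 4 others did have one, as did 9.21% of all genes tested in the direction of a rise, and that side does not involve Ikbkb+/+. The activation effect was 2.56 ± 0.61 for Cd74, 1.87 ± 0.47 for the class II gene H2-Ab1, 2.54 ± 0.75 for the calprotectin gene S100a8, 2.54 ± 0.64 for the sialyltransferase gene St8sia6 and 2.10 ± 0.63 for the receptor gene Tlr12. Without the 3 libraries the differences left for the last 4 were 1.58, 2.22, 2.45 and 1.76. Of 9 granulocyte markers S100a8, S100a9 and Camp were tested. The summed level of the list was 8.03 to 421 CPM in Ikbkb+/+, 17.1 to 86.7 in IkbkbCA and 6.85 to 13.2 in IkbkbWT and Ikbkb-/-. The part of these markers in the differences was not tested. In bulk cultures, more cells of one kind and more RNA of a gene per cell cannot be told apart.

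**Figure D3:**
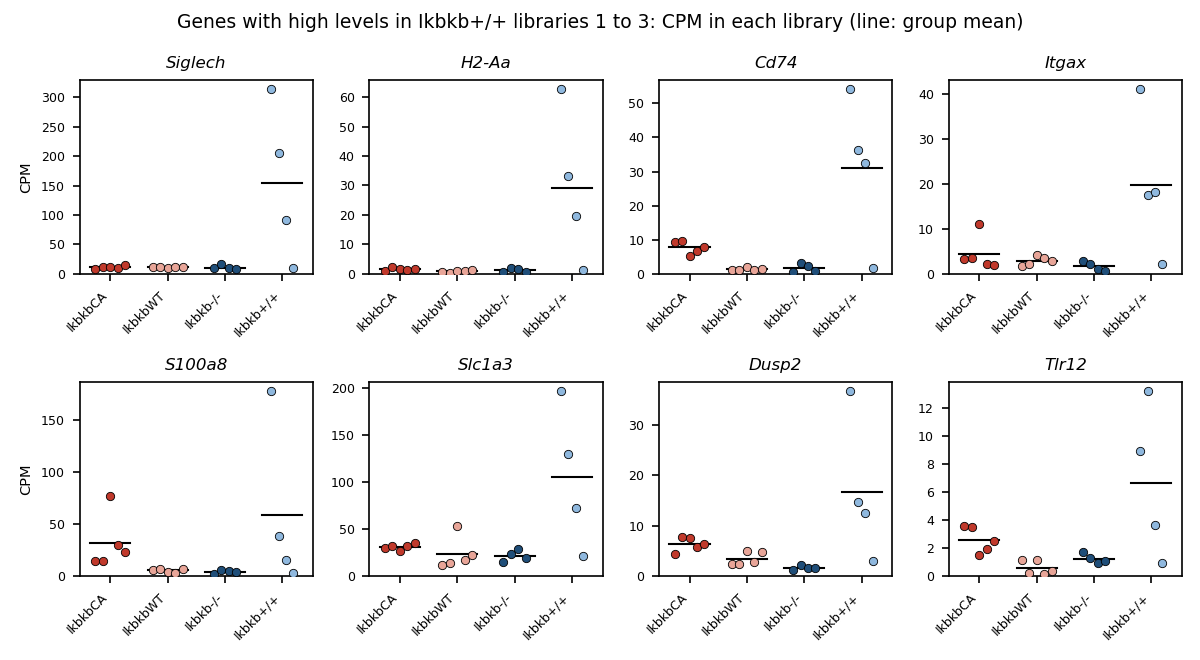
TMM-normalized CPM of 8 genes in each of the 18 libraries (points, in library order within a group; vertical axis from 0) with group means (lines). Ikbkb+/+ libraries 1, 2 and 3 stand above library 4, which lies near the Ikbkb-/- and IkbkbWT libraries. For Cd74 the 5 IkbkbCA libraries, at 5.22 to 9.66 CPM, also lie above IkbkbWT and above Ikbkb+/+ library 4.

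Promoters of the 17 genes called under every alternative were read to see whether they hold letters that NF-κB can bind. RefSeq windows of 250 bases before to 50 after a gene's start (GRCm38.p6) existed for 13 of them and for 9342 of the tested genes. The 10-base κB consensus, searched on both strands, matched in a window of 4 of the 13 (30.8%), beside 12.4% of all tested genes with a window. Those 4 were Ccrl2, Maff, Nfkbia and Tlr2, and the rest of the 13 held no match. Only the windows of these 4 are shown, because they hold the letters searched for. They are given 5′ to 3′ on the gene's own strand, with matches in capitals.
Nfkbia, chr12:55492598-55492897, minus strand: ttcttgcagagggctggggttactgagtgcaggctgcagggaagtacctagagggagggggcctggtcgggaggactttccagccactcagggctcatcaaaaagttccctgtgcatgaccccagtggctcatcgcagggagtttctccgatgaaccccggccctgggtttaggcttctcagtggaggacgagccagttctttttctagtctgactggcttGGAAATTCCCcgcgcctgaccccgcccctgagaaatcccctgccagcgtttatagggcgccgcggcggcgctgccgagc
Tlr2, chr3:83841559-83841858, minus strand: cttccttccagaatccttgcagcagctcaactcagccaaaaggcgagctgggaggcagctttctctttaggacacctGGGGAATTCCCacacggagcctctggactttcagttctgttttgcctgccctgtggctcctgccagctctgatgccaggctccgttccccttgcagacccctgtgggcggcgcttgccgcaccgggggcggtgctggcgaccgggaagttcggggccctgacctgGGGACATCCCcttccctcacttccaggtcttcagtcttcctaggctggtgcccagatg
Maff, chr15:79348152-79348451, plus strand: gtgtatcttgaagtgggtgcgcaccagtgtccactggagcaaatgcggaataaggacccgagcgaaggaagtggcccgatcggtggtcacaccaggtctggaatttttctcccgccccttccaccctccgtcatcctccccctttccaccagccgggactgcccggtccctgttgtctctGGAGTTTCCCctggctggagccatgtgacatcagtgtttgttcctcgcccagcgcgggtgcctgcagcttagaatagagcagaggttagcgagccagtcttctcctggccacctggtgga
Ccrl2, chr9:111057469-111057768, minus strand: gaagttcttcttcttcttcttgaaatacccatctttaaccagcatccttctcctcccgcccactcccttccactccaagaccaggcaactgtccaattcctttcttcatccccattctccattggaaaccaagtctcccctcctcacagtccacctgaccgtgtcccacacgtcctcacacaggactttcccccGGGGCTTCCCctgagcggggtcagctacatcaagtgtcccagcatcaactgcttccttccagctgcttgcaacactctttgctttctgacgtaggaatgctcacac
The match in Nfkbia began 29 bases before the start and also met the stricter form GGGANNTTCC. Tlr2 had 3 matches, of which those beginning 173 and 172 bases before the start are overlapping readings of the same site and the last begins 8 bases before the start. In Maff the match began 70 bases before the start and in Ccrl2 56 bases before it.

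Over all tested genes with a window, 12.4% held the κB consensus. The share was 20.7% among the 217 genes called higher (45 genes), 14.8% among the 81 called lower (12 genes) and 28.6% among the 14 genes with opposite effects that were higher (4 genes). The stricter form was in 1.74% of all tested genes, 3.69% of those called higher and 2.47% of those called lower. The interferon-stimulated response element GAAANNGAAA, for comparison, was in 3.93% of all tested genes, 4.61% of those called higher (10 genes) and 9.88% of those called lower (8 genes). Among the 12047 single windows of tested genes, 10.4% held the κB consensus. Genes had 1.29 windows on average over all tested and 1.23 among those called higher. These shares describe letters in the windows and were not tested.

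Genes of the NF-κB pathway itself stood on the side of active IKKβ. Of 5 NF-κB subunits, 3 were called and all were higher, namely Relb, Nfkb2 with 1.65 ± 0.22 and Nfkb1 with 1.04 ± 0.20. Rela (0.34 ± 0.12) and Rel (0.26 ± 0.19) were not called. Of 13 IκB proteins and other brakes, 8 were called and all were higher, and the list's median difference was 1.09 beside -0.04 for all genes. They split by pattern. Nfkbia, Tnfaip3 and the nuclear IκBζ gene Nfkbiz had opposite effects, whereas Nfkbie, the IκBε gene (2.55 ± 0.32), Tnip1, which works with A20 (1.53 ± 0.19), and Traf3, which restrains the non-canonical arm (0.98 ± 0.15), had deletion effects of -0.17, 0.09 and 0.05 that were not called. Of 10 IKK and TBK1 kinases, Ikbke rose with activation to 61.4, 55.3, 91.7, 56.0 and 58.9 CPM against 11.0 to 21.2 elsewhere, a difference of 1.95 ± 0.23, and apart from Ikbkb no other was called. Without Ikbkb+/+ libraries 1 to 3, calls remained for 2 of the subunits, 4 of the brakes and 2 of the kinases.

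**Figure D4:**
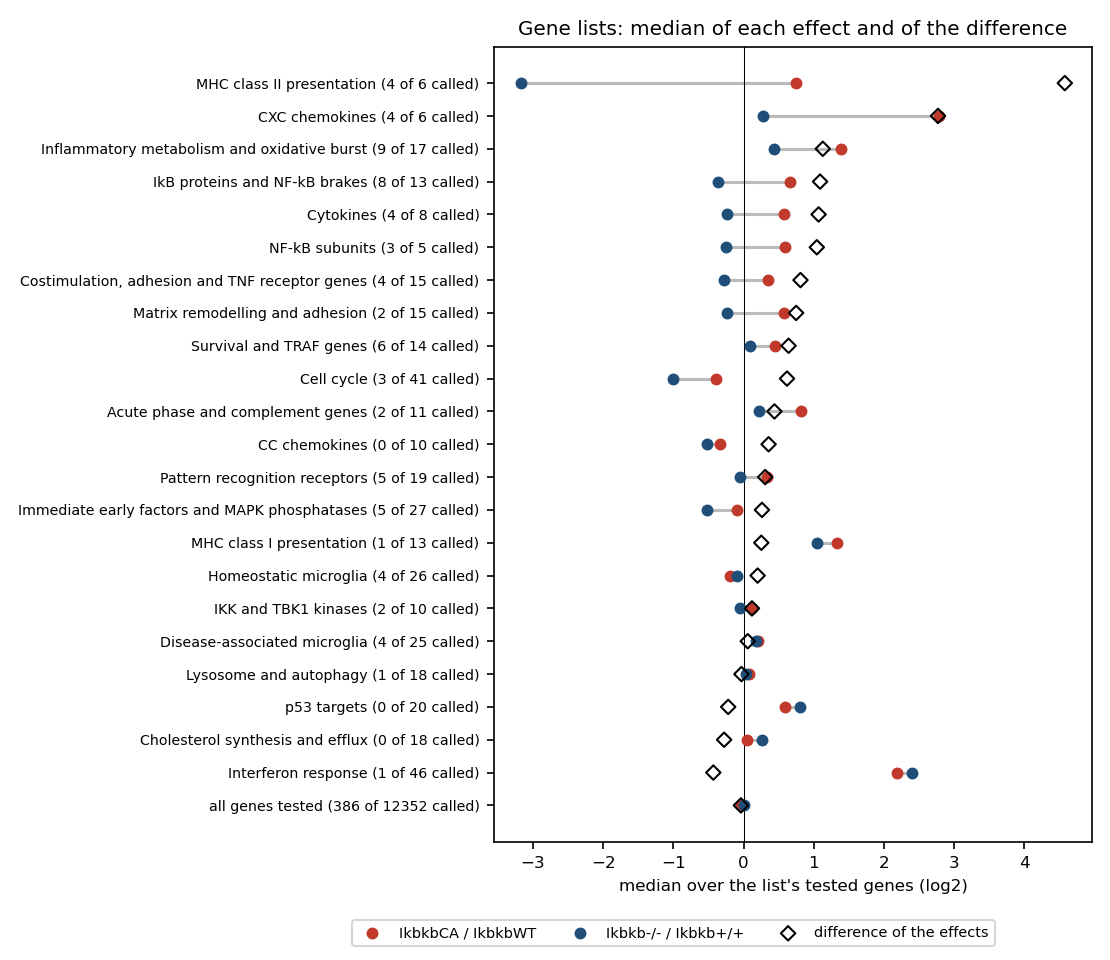
Median over the tested genes of each list (log2, horizontal axis) of the IkbkbCA effect (red), the Ikbkb-/- effect (blue) and the difference between the effects (open diamonds), with called and tested members given beside the name. The lists of NF-κB subunits and of its brakes have medians on either side of 0 for the 2 effects. So do other lists, such as cytokines and MHC class II, and no subunit had a called deletion effect. The interferon, MHC class I and p53 lists lie above 0 for both.

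Secreted signals were called in part. Of 6 CXC chemokines tested, 4 were called and all were higher, Cxcl16, Cxcl2, Cxcl13 and Cxcl10. None of 10 CC chemokines was called (3 at an unadjusted p under 0.05, none by DESeq2 or limma). With 3.12% of all genes called, a list this short can hold no called gene. Cxcl10 was at 21.8, 24.0, 22, 31.3 and 30.3 CPM in IkbkbCA and 1.15, 0.204, 4.79, 2.61 and 2.61 in IkbkbWT, and at 5.61, 7.35, 12.1 and 6.99 in Ikbkb-/- and 14.8, 3.15, 9.25 and 2.24 in Ikbkb+/+, where the groups overlapped. Cxcl2, a neutrophil attractant, had 17.5, 13.5, 159, 32.9 and 33.3 CPM in IkbkbCA and 4.59, 3.47, 5.94, 6.85 and 13.7 in IkbkbWT. It had 3.37, 3.57, 2.33 and 4.05 CPM in Ikbkb-/- and 34.1, 17.2, 23.9 and 7.51 in Ikbkb+/+. IkbkbCA library 3 was far above its group for this gene, and leaving out library 3 of both groups changed the difference from 5.39 to 4.27 (edgeR adjusted p = 0.000671). Cxcl13, which draws B cells, had the highest difference of all, but at low levels. It was at 10.5, 5.99, 50.9, 2.09 and 2.51 CPM in IkbkbCA, at most 0.227 in IkbkbWT, at most 1.05 in Ikbkb-/- and 0.742, 4.19, 3.8 and 0.132 in Ikbkb+/+, so its log2 difference of 9.12 ± 1.79 depends on the prior count added to near-empty libraries and is no measured fold. It was not called by limma-voom or without Ikbkb+/+ libraries 1 to 3, and of the 4 chemokines only Cxcl16 kept its call without them. Mcemp1, Tnfsf9 and Ly6i, also among the 10 highest differences, were likewise near-empty outside IkbkbCA, and Ly6i was at 19.0, 17.4, 28.1, 14.2 and 15.0 CPM in IkbkbCA and at most 0.561 elsewhere. Their log2 differences are no measured folds either. Slamf8, a surface receptor of macrophages, had 33.4, 30.7, 90.4, 29.7 and 27.6 CPM in IkbkbCA, and Tnip3, another partner of A20, had 17.3, 16.4, 85.4, 27.2 and 24.6, both highest in library 3.

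Of 8 cytokines tested, 4 were called, all higher. They were Ebi3, a subunit of IL-27 and IL-35 (0.88 ± 0.12), Il1b (2.2 ± 0.56), Il1rn, the IL-1 receptor antagonist (1.26 ± 0.26), and Tnf (2.38 ± 0.50). Il1b rose on activation (2.46 ± 0.38) with a deletion effect of 0.25 ± 0.42. Il1rn moved on the other side, at 9.48 ± 1.68 CPM in Ikbkb-/- and 19.4 ± 2.54 in Ikbkb+/+ (mean ± SD, n = 4 each), with an activation effect of 0.21 ± 0.16 that was not called. Tnf was at 15.7, 17.2, 10.5 and 10.5 CPM in Ikbkb-/- and 73.1, 35.9, 33.0 and 22.1 in Ikbkb+/+, without overlap, and was highest in Ikbkb+/+ library 1. Without Ikbkb+/+ libraries 1 to 3, Ebi3 was the only cytokine called. Among 11 acute phase and complement genes, C3 and Saa3 were called, both with activation alone. C3, the central complement component, had 345, 292, 431, 234 and 185 CPM in IkbkbCA against 5.94 to 30.9 in the other 13 libraries. Saa3, an acute phase apolipoprotein, had 917, 1109, 25062, 1664 and 1779 CPM in IkbkbCA against 23 to 98.9 elsewhere, so library 3 held more than all other libraries together, and the difference without library 3 of both groups was 4.94 (edgeR adjusted p = 4.94e-07) in place of 6.69.

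Of 17 genes of inflammatory metabolism and the oxidative burst, 9 were called higher and none lower, beside 3.12% of all genes called in either direction. Next to Acod1 and Gpr84 they included Gch1, which starts tetrahydrobiopterin synthesis (1.05 ± 0.21), and the NADPH oxidase subunits Ncf4 (0.74 ± 0.17) and Cyba (0.62 ± 0.15). Of 19 pattern recognition receptors and their adaptors, 5 were called, all higher. They were Tlr2, the lectin genes Clec4d (2.98 ± 0.39) and Clec4e (5.10 ± 1.18), the inflammasome sensor Nlrp3 (1.21 ± 0.24) and the lipopolysaccharide co-receptor Cd14 (1.04 ± 0.23), and each had a deletion effect that was not called. Of 14 survival and TRAF genes, 6 were higher, among them Birc3 (1.89 ± 0.29), Cflar (0.76 ± 0.13), Mcl1 (0.55 ± 0.10), Bcl2a1a (3.49 ± 0.73) and Ier3 (0.96 ± 0.21). Bcl2a1a has near-identical copies that can share its reads, so its level is uncertain. Of 15 costimulation and adhesion genes, Cd69, Cd80, Cd274 and Tnfsf9 were higher, though Tnfsf9 was at 0 to 12.3 CPM in IkbkbCA and at 0 to 2.31 elsewhere. Of 15 matrix genes, Mmp14, a membrane-bound metalloproteinase, had 50.6, 52.0, 134, 57.4 and 50.6 CPM in IkbkbCA against 3.95 to 13.4 in the others, and Plau, the urokinase gene, had a difference of 0.98 ± 0.22. Of 27 immediate early genes and MAPK phosphatases, 5 were higher, Maff, Junb, Dusp2, Fos and Dusp1; Fos (-1.21 ± 0.28) and Dusp1 (-1.73 ± 0.34) had called deletion effects and no called activation effect. Of 18 lysosome genes only Ctsc, the activator of granule serine proteases, was called (0.96 ± 0.18). Without Ikbkb+/+ libraries 1 to 3, calls remained for Acod1 and Gpr84, for Tlr2 and Clec4d, for Birc3 and Cflar and for Maff, and for no other gene of this paragraph.

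On the lower side of the difference, 41 of 111 genes were called with each library left out in turn, and on the higher side 175 of 275. Fcrls, a receptor gene that marks microglia, was at 417, 406, 152, 174 and 167 CPM in IkbkbCA and 1503, 1322, 882, 643 and 549.8 in IkbkbWT, where libraries 1 and 2 of each group were above libraries 4 and 5. In Ikbkb-/- it was at 2130.2, 2224, 2583 and 2649 and in Ikbkb+/+ at 1986, 2039, 2271 and 2343, with overlap. The difference of -2.05 ± 0.44 (edgeR adjusted p = 0.0115) came with activation alone and was not called with pairs of libraries summed (-2.11, edgeR adjusted p = 0.434). Among 26 homeostatic genes, Mef2c, a transcription factor of resting microglia, was also lower (-0.74 ± 0.16), whereas Tgfbr1 (1.17 ± 0.26) and Siglech were higher. At an unadjusted p under 0.05 there were 14 of the 26, and the differences were positive for 16 and negative for 10, with a median of 0.20. Among 25 genes of the disease-associated state, Spp1, which encodes osteopontin, was at 1537 ± 190.2 CPM in IkbkbCA and 2205 ± 411 in IkbkbWT, then 2725 ± 428 in Ikbkb-/- and 2139 ± 150.1 in Ikbkb+/+ (mean ± SD), a difference of -0.87 ± 0.19. Fabp5 was the other member that was lower, and Lyz2, the lysozyme gene (1.68 ± 0.22), and Itgax were higher. Several of the 10 lowest differences were at low levels: Gm29438, Lama3, 4833421G17Rik, 2900037B21Rik, Gm43259, Cmah, Pdzk1ip1 and Ms4a4a stayed under 8 CPM in every library. Of the other 2, Fcrls is given above, and Gm4951, which rose in both mutants, had 9.26, 11.2, 4.85, 10.0 and 9.02 CPM in IkbkbCA and 1.15, 2.04, 4.22, 0.978 and 1.36 in IkbkbWT against 11.8, 13.2, 16.5 and 13.4 in Ikbkb-/- and 0.371, 0.839, 0.330 and 0.132 in Ikbkb+/+.

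Many genes changed in the same direction in both mutants and were not called in the difference. All 46 interferon response genes rose in IkbkbCA and 44 of them rose in Ikbkb-/-, with medians of 2.19 and 2.40, while in the difference 1 was lower, Cmpk2, and none was higher. The difference was nevertheless negative for 38 of the 46, with a median of -0.43 and 9 genes at an unadjusted p under 0.05. Cmpk2, a mitochondrial nucleotide kinase of that response, was at 55.6, 41.9, 32.8, 47.4 and 46.4 CPM in IkbkbCA and 7.87, 8.57, 10.9, 4.4 and 5.11 in IkbkbWT, and at 66.2, 80.2, 67.1 and 80.9 in Ikbkb-/- and 5.20, 5.45, 5.12 and 5.66 in Ikbkb+/+. MHC class I genes rose in 13 of 13 and 10 of 13 cases, and H2-K1, the classical class I heavy chain, was the only one called in the difference (1.14 ± 0.23, edgeR adjusted p = 0.00686). It had 1805 ± 67.4 CPM in IkbkbCA, 308 ± 100.3 in IkbkbWT, 846 ± 48.2 in Ikbkb-/- and 319 ± 52.2 in Ikbkb+/+ (mean ± SD). Of 20 p53 targets, 10 rose in IkbkbCA and 11 in Ikbkb-/-, and none was called in the difference (4 at an unadjusted p under 0.05, and 1 by DESeq2). The difference was negative for 14 of the 20 and positive for 6, with a median of -0.22. The cell cycle inhibitor Cdkn1a had effects of 1.35 ± 0.11 and 1.84 ± 0.13. Of 41 cell cycle genes, 12 fell in IkbkbCA and 28 in Ikbkb-/-. The difference was positive for 39 of these 41 genes with a median of 0.62, and 18 were at an unadjusted p under 0.05. Of the 41, 3 were called, Ccna2, Rrm1 and Hmgb2, all higher. Ccna2, which drives S phase, had 20.8 ± 5.95, 26.2 ± 2.02, 15.1 ± 2.49 and 35.9 ± 2.71 CPM in IkbkbCA, IkbkbWT, Ikbkb-/- and Ikbkb+/+ (mean ± SD). Of 9 border macrophage markers tested, 7 fell in IkbkbCA and 6 in Ikbkb-/-, while Ms4a7 rose in both. Their summed level was 1523 to 2515 CPM in the 2 mutants and 3073 to 4386 CPM in the 2 controls. Only Ms4a7 was called in the difference (0.59 ± 0.14). The difference was negative for 7 of the 9 and positive for 2, with a median of -0.61 and 5 at an unadjusted p under 0.05. No cholesterol gene of 18 was called in the difference or in either effect, and none was at an unadjusted p under 0.05 in the difference or called by DESeq2 or limma. The difference was negative for 15 of the 18 and positive for 3, with a median of -0.28. With 3.12% of all genes called, a list of 18 can hold no called gene. Whether the shared changes go with the Cre allele, with the lost copy of Cx3cr1 or with IKKβ cannot be told apart in this design.

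Markers of other cell types were mostly not called in the difference, and their levels varied between libraries. The 15 microglia markers summed to 18311 to 34204 CPM, above the sums of the lists below in every library, which does not measure purity. Group medians ran from 19520 CPM in IkbkbWT to 31415 CPM in Ikbkb-/-. Summed levels were 50.2 to 412 CPM for neurons, 56.7 to 894 for astrocytes and 511 to 5435 for the oligodendrocyte lineage, with the highest astrocyte and oligodendrocyte values in IkbkbWT library 3. IkbkbCA library 3 had the next highest oligodendrocyte value, 2114 CPM, and libraries 4 and 5 of both groups had the highest neuron values, 368 to 412 CPM against 50.2 to 135 in the other 14. None of 9 neuron or 11 oligodendrocyte markers was called (0 and 2 at an unadjusted p under 0.05). The difference was negative for 9 of the 11 oligodendrocyte markers (median -1.12), 7 of 9 astrocyte markers (median -0.78) and 6 of 9 neuron markers (median -0.52). The part of these cells in the other results was not tested. Slc1a3, a glutamate transporter on the astrocyte list, was called (2.63 ± 0.67), with 196, 129, 72.7 and 21.5 CPM in Ikbkb+/+ in the order of Siglech, and Gfap, the defining astrocyte marker, was at 0.857 to 12.2 CPM outside IkbkbWT library 3. Without library 3 of IkbkbWT and of IkbkbCA, 461 genes passed, 353 of them among the 386, and 35 had opposite effects.

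The genes called in the difference were then read in libraries that share no sample with the 18. Wild-type primary microglia given 2 μg/ml of full length tau fibrils for a day were compared with vehicle, 4 libraries each with 1.67 M to 4.64 M counts. Of 10188 genes tested in both experiments, tau raised 14.7% and lowered 14.8%. Of the 239 such genes that were higher with active IKKβ, tau raised 152 (63.6%) and lowered 15 (6.28%), with a median of 0.94. Of the 92 that were lower, tau raised 15 (16.3%) and lowered 29 (31.5%), with a median of -0.15, and over all genes the median was 0.00. Among the 14 measured genes with opposite effects that were higher, 11 rose with tau and none fell. Tlr2 rose by 1.95 ± 0.16, Acod1 by 3.59 ± 0.24, Gpr84 by 2.82 ± 0.19, Cxcl16 by 2.72 ± 0.14, Relb by 1.62 ± 0.24, Rassf4 by 3.06 ± 0.14 and Clec4n by 2.43 ± 0.23. Nfkbia rose by 1.13 ± 0.12 (edgeR adjusted p = 3.56e-08), and Enho (-0.84 ± 0.19), Fabp5 (-0.64 ± 0.22) and Spp1 (-1.16 ± 0.14) fell. Not every gene followed. Maff had -0.66 ± 0.29 and was not called with tau (edgeR adjusted p = 0.0864), Fcrls had 0.24 ± 0.13 and was not called, and Cmpk2, lower in the difference, rose by 4.21 ± 0.24. In microglia isolated from PS19 mice, which express mutant human tau, and from control mice labelled NTG (4 libraries each), 8 of 10749 shared genes were called higher (0.0744%) and 0 lower (0%; 379 at an unadjusted p under 0.05 by edgeR). The study, with its own processing, reported more genes raised in PS19 microglia at an FDR under 0.05, among them Tlr2, Tnf and Il1rn. What accounts for the unlike counts was not tested. PS19 mice were 10.98 months old, and of the NTG mice 2 were 10.98 and 2 were 11.18 months old. The PS19 difference was positive for 167 of the 264 shared genes higher with active IKKβ (median 0.12, 1 called) and for 63 of the 101 lower ones (median 0.16, 1 called), beside 5490 of all 10749 (median 0.01), so the shift did not follow the direction of the difference.

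**Figure D5:**
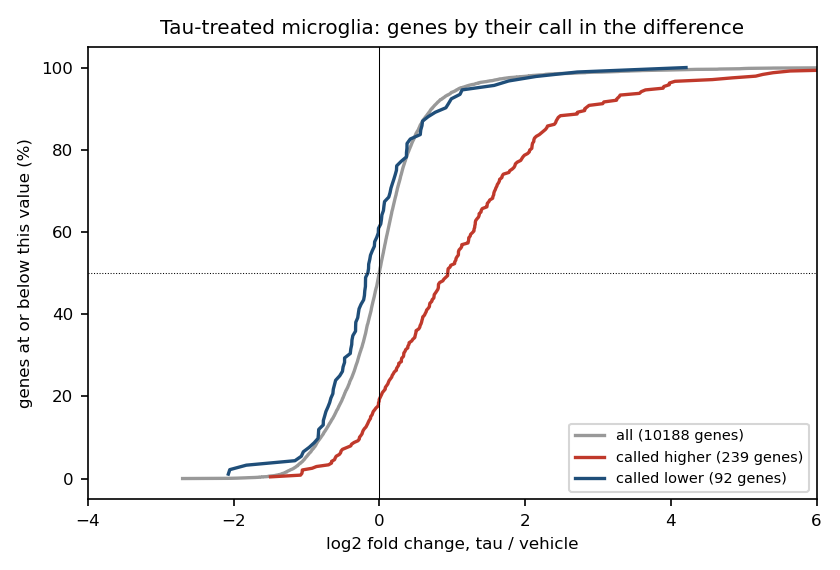
Cumulative share of genes (vertical axis, %) against the log2 fold change of tau over vehicle (horizontal axis) for all 10188 genes tested in both experiments, the 239 called higher in the difference and the 92 called lower. The curve of the genes called higher lies to the right, with a median of 0.94 against 0.00 for all genes, and the curve of the genes called lower lies slightly to the left.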

How the data were processed

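Primary microglia were profiled with QuantSeq 3′ libraries. Per the labels and the study's methods, the authors processed reads with the Lexogen QuantSeq pipeline on GRCm38 with GENCODE genes. The labels name STAR and RSEM without versions. The deposited values are whole read counts per gene, with no normalization. From these 47643 rows, 5 lines that name no gene were left out, and 47224 matched GENCODE M21 symbols. Groups came from the genotype labels. The members and gene lists were chosen with earlier results of these data known.

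edgeR 4.0.16 (R 4.3.3) fitted the 18 libraries together with TMM scaling and the quasi-likelihood test, after filterByExpr with a minimum count of 10. Benjamini-Hochberg adjustment ran over all 12352 genes tested, and a gene was called at an adjusted p under 0.05. Residual degrees of freedom were 14 and the common biological coefficient of variation 20.0%. Changes are log2 ± SE and group levels mean ± SD. The tau and PS19 libraries were fitted separately by the same test. Authors' lists of changed genes were not used.

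Genes named were Ikbkb and Cx3cr1, the 10 highest and 10 lowest differences among called genes with a mean count of at least 10 in the highest group, up to 20 genes with opposite effects, and up to 5 called members of each list by p. Clec5a, Ets2, Igsf6, Il2rg, Lpcat2, Marcksl1, Nadk, Rrad and Cdkn1a fall outside that rule and were chosen after their values were seen. Alternatives were other scalings and filters, DESeq2 1.42.0, limma 3.58.1, covariates, each experiment fitted apart, each library left out in turn, and 4 library choices made after seeing the data. RefSeq promoter windows were searched for motifs with Python 3.11.15.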

Additional observations from a re-analysis of the deposited data

Results flagged for a closer look

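In 37 of 372 sets of 4 or 5 libraries (1 named gene in 1 group each), 1 library lay farther from the others than Dixon's 95% critical value allows. Chance gives about 1 in 20 sets where values are normally distributed, which was not tested for these CPM values. Many of the named genes were picked by their values in these libraries, and the genes are not independent of each other. The share of 1 in 20 is therefore no exact background here. All values are TMM-normalized CPM. IkbkbCA library 3 stood above its group for Cxcl13 (50.9 CPM), Saa3 (25062 CPM), S100a8 (77 CPM), Tnip3 (85.4 CPM), Slamf8 (90.4 CPM), Acod1 (224 CPM), Nfkbia (1317 CPM), Plxnd1 (103 CPM), St8sia6 (6.34 CPM), Nrp2 (661 CPM), Ikbke (91.7 CPM), Bcl2a1a (56.8 CPM), Cxcl2 (159 CPM), Il1rn (40.4 CPM), Tnf (60.2 CPM), Gpr84 (319 CPM), Clec4d (796 CPM), Clec4e (389 CPM), Itgax (11.2 CPM) and Mmp14 (134 CPM). IkbkbWT library 3 stood above its group for Cd74 (1.92 CPM), Slamf8 (6.13 CPM), C3 (30.9 CPM) and Clec4d (72.7 CPM). Ikbkb+/+ library 1 stood above its group for Gm43259 (3.34 CPM) and Tlr2 (133 CPM). Ikbkb-/- library 3 stood below its group for Nrp2 (183 CPM) and Il1rn (6.99 CPM). IkbkbWT library 2 stood above its group for Ikbkb (58.7 CPM). Ikbkb+/+ library 2 stood below its group for Ikbkb (45.7 CPM). Ikbkb-/- library 1 stood below its group for 4833421G17Rik (1.68 CPM). IkbkbWT library 5 stood above its group for Mcemp1 (0.341 CPM). IkbkbCA library 3 stood below its group for Enho (7.08 CPM). IkbkbWT library 1 stood above its group for Tnip1 (44.4 CPM). IkbkbCA library 2 stood above its group for H2-Eb1 (2.32 CPM). IkbkbCA library 4 stood above its group for Spp1 (1862 CPM). Ikbkb+/+ library 1 stood below its group for Hmgb2 (17.4 CPM). Without library 3 of IkbkbCA and of IkbkbWT, 461 genes were called in the difference, 353 of them among the 386.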

How the results depend on the processing

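The 386 calls, 275 higher and 111 lower, were recomputed under 33 other settings. Leaving out 1 library at a time gave 255 (without Ikbkb+/+ library 3) to 431 (without IkbkbCA library 1) calls, 209 to 298 higher and 46 to 133 lower, with 12 to 30 opposite effects, 200 to 323 with the IkbkbCA effect alone and 29 to 59 with the Ikbkb-/- effect alone. In all 18 such fits 216 genes were called. Total-count scaling gave 193 lower calls, and the share of higher calls went from 71.2% to 56.6%. DESeq2 gave 175 lower calls and 81 with the Ikbkb-/- effect alone, and the likelihood ratio test 76 of these. limma-voom gave 12 opposite effects and 22 with the Ikbkb-/- effect alone, and with sample weights 36 opposite effects. Each experiment fitted apart gave 848 calls (454 higher, 394 lower, 53.5% higher), with 42 opposite and 178 with the Ikbkb-/- effect alone. A term for the percentage of reads outside genes gave 107 (87 higher, 20 lower), with 3 opposite, 66 IkbkbCA alone and 19 Ikbkb-/- alone. Of the fits chosen after seeing the data, a term for the 3 library sets gave 971 (505 higher, 466 lower, 52.0% higher), with 66 opposite, 595 IkbkbCA alone and 186 Ikbkb-/- alone. Pairs of libraries summed gave 22 (22 higher, 0 lower), with 3 opposite, 19 IkbkbCA alone and 0 Ikbkb-/- alone. Without Ikbkb+/+ libraries 1 to 3 there were 59 (58 higher, 1 lower), with 1 opposite, 56 IkbkbCA alone and 2 Ikbkb-/- alone. Its lone Ikbkb+/+ library is assumed to vary like the other groups. Without both libraries 3 there were 35 opposite effects. Of 93 named genes only Siglech changed sign, to -0.16 without Ikbkb+/+ libraries 1 to 3. Beyond the construction of each setting, the cause was not tested. No paired analysis was possible because replicate numbers follow accession order and pair no samples. The 3 library sets above were instead read from the expression data, in IkbkbCA and IkbkbWT alone. At 1792993 to 8349128 counts per library, low genes have few counts and imprecise differences.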
